A study of Mus musculus with 8 samples.

Results

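The genes described here are 36 keratin and epidermal differentiation genes, followed through B16F1 mouse melanomas grown in hosts with and without TNF receptors. The list was selected on measured values, because Krt6b and Dmkn were brightest in untreated tumours of receptor-deficient hosts. Differences that involve that pool are therefore given below as a description: no p-value is printed for them, and counts of calls in them were fixed in part by the choice and support nothing. The 36 genes are 36 of the 18193 genes that the array reads with a probe set naming that gene alone, and each is represented by its brightest such probe set. By role the list holds 4 basal keratinocyte genes, 6 wound-induced genes, 13 suprabasal and cornified-layer genes, 3 desmosome genes, 4 keratins of simple epithelia, 2 keratins of internal stratified epithelia and 4 keratins of hair follicle and gland duct.

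B16F1 is a melanoma line of C57BL/6 origin, and its cells were injected under the skin of the right hind limb. The wild-type hosts (WT) were C57BL/6-NCr mice, and the receptor-deficient hosts (TNFR KO) carried disrupted Tnfrsf1a and Tnfrsf1b alleles, both tm1Imx, on a B6;129S background, which the labels shorten to C57BL/6. The same tumour line was injected into both, so the receptor alleles were missing from host tissue and not from the tumour cells. Hosts were 8 to 12 weeks old, 5 to 7 mice of each genotype were injected, and tumours of 268 to 478 mm3 either stayed untreated or received a single dose of 20 Gy of X-rays on the limb, with excision 5 h after treatment. RNA from whole tumours of a group was combined into 1 pool, and each of the 4 pools was hybridised to 2 arrays. Each of the groups (WT untreated, TNFR KO untreated, WT irradiated, TNFR KO irradiated) is thus a single pool. Every error and p-value below measures the spread between duplicate arrays of the same RNA and no spread between mice. The series asks which genes accompany the radiosensitivity of tumours whose host stroma cannot answer TNF.

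The skin's epidermis renews itself from a basal layer, whose cells build their skeleton from the keratin partners Krt5 and Krt14. Cells that leave that layer switch to Krt1 and Krt10, then make loricrin, filaggrin and other proteins of the cornified envelope. Injured or stressed epidermis turns on Krt6a, Krt6b, Krt16, Krt17 and the small proline-rich proteins. The labels name whole tumours grown under the skin, and which cells of the excised tissue made these transcripts was not tested. In RNA of whole tissue, fewer cells of a type and less RNA per cell cannot be told apart.

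Many of these genes sit side by side in the genome. By the order of protein-coding genes in RefSeq, Krt6b, Krt6a and Krt5 were immediate neighbours on chromosome 15, Krt14, Krt16 and Krt17 on chromosome 11, and Sbsn, Dmkn and Krtdap on chromosome 7. Of the 36 genes, 11 lay on chromosome 15, 9 on chromosome 11, 5 on chromosome 3 and 4 on chromosome 7. Start-site windows of 300 bases (250 before and 50 after the start, RefSeq on GRCm38.p6) were given for 24 of the 36 genes. The following 5 windows are shown, each 5′ to 3′ on the gene's own strand, because 4 of them belong to genes that were highest together in the TNFR KO untreated pool and the last to a simple-epithelium keratin that was not. Capitals mark TATAAA (the TATA box) and TGANTCA (the AP-1 motif), searched on both strands with overlapping matches joined.
Krt14, chr11:100205981-100206280, minus strand: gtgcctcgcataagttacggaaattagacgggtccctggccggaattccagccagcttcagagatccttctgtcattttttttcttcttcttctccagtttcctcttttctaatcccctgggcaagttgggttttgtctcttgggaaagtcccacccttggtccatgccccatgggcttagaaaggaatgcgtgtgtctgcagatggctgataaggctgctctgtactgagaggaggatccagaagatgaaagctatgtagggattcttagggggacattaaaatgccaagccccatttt
Sprr1a, chr3:92485832-92486131, minus strand: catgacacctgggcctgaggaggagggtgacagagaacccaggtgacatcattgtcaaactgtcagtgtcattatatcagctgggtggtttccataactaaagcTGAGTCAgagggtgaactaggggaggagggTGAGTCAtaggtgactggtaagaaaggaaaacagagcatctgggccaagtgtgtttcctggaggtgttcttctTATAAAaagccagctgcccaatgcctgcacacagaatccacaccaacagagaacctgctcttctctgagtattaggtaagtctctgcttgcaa
Sprr1b, chr3:92438730-92439029, minus strand: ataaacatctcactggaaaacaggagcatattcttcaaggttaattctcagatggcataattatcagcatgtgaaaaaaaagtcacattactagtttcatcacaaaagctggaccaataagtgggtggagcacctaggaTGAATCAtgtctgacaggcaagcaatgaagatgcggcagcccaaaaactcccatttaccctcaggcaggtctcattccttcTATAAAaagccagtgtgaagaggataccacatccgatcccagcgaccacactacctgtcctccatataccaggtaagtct
Krtdap, chr7:30787655-30787954, plus strand: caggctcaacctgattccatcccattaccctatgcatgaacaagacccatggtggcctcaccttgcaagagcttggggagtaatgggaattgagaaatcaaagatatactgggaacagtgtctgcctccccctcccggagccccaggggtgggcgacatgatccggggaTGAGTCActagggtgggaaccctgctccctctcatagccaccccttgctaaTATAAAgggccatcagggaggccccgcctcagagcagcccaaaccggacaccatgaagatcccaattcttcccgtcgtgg
Krt8, chr15:102004293-102004592, minus strand: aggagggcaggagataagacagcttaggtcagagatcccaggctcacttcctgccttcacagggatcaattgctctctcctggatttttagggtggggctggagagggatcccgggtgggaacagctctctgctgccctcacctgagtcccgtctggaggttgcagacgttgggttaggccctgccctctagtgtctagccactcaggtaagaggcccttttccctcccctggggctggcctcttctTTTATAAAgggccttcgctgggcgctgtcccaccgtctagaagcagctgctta
The Sprr1a window held 2 AP-1 matches and 1 TATA match, the Sprr1b and Krtdap windows 1 of each, and the Krt14 window none of either. In Krt8 the capitals are 2 TATA matches on opposite strands that overlap. TATAAA was found in 11 of the 24 genes with a window, and in 11 of their 28 windows, against 13.6% of 32851 RefSeq windows. Among those 24 genes, it was in 7 of the 14 highest in the TNFR KO untreated pool and in 4 of the 10 others. TGANTCA was found in 9 of the 24 genes and in 12 of the 28 windows, against 7.81% of all windows. By gene it divided into 6 of 14 and 3 of 10. GCCNNNGGC, the AP-2 motif, was found in 3 of the 24 genes and in 3 of the 28 windows, against 16.6% of all windows. These are matches of letters in a window and not binding sites.

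Signals are MAS5 intensities, scaled by the authors so that the arrays share a common mean, and they have no absolute unit. Detection calls were not used, so low signals are not shown to lie above background and ratios against them compare signals only. A gene was tested when its mean over the 8 arrays reached 6.41 on the log2(signal + 16) scale, a signal of 68.8, which is the median of all probe sets. Of the 36 genes, 9 reached it: Krt5, Krt6a, Krt6b, Sprr1a, Lor, Dmkn, Sbsn, Lgals7 and Cdsn. Dmkn at a mean of 6.56 and Krt6b at 6.63 lay just inside, and each passed only through the TNFR KO untreated pool. Krt1 at 6.27 and Krt79 at 6.19 lay just outside. In at least 1 pool 24 of the genes reached that level, and the other 12 reached it in none. The correlation of log2 signals between duplicates was 0.975 to 0.981. Bacterial spike-ins added as poly-A RNA separated the hosts: dap read 17421 on average in the WT pools and 17.3 in the TNFR KO pools. The later control cre read 14638 and 14074, and 18S rRNA probe sets read 316 and 736. Spike-ins lys, phe and thr split the same way, and host and any difference in RNA handling that these controls track cannot be told apart. The controls also differed by treatment within a host. In WT, dap read 12784 untreated and 22058 irradiated, and lys, phe and thr were likewise higher in the irradiated pool. In TNFR KO, 18S rRNA read 529 untreated and 944 irradiated. Irradiation and such handling therefore cannot be told apart either.

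**Figure D1:**
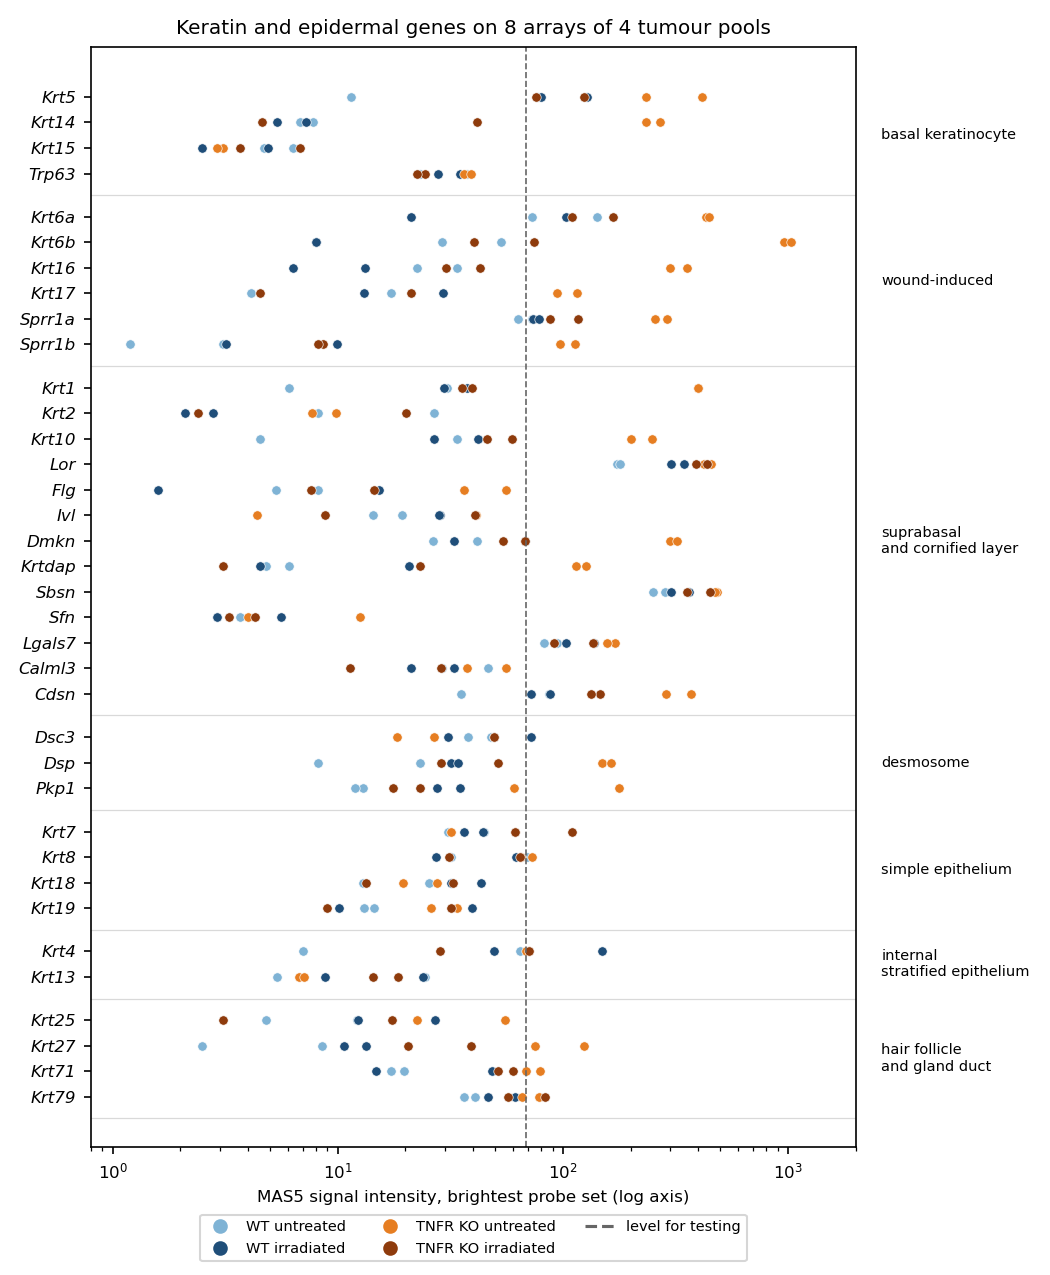
MAS5 signal of each of the 36 genes (rows, by role) on a log axis, with 1 point per array, coloured by pool, and the level for testing as a dashed line. The TNFR KO untreated arrays stand apart on the right for Krt6b, Krt16, Krt1 and Dmkn, while the keratins of simple and internal epithelia show the 4 pools intermixed.

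Both TNFR KO untreated arrays were above all 6 other arrays in 20 of the 36 genes. Across all 18193 genes the same was true of 9.75%. No gene of the list was highest on both arrays of another pool, against 11.7% of all genes for WT untreated, 8.2% for WT irradiated and 14.6% for TNFR KO irradiated. The 20 comprised 2 of 4 basal genes, 6 of 6 wound-induced genes, 8 of 13 suprabasal and cornified-layer genes, 2 of 3 desmosome genes and 2 of 4 hair and gland keratins. None of the 4 simple-epithelium or 2 internal-epithelium keratins did so. Since the list was chosen for this peak, the count describes the list and supports nothing further. In 17 of the 36 the TNFR KO untreated pool was also at least 2-fold above each other pool on the log2(signal + 16) scale, against 0.286% of all genes, 52 in number. Ordered by that gap, Krt6b stood at rank 1 of 18193 genes, Krt14 at rank 3, Krt1 at rank 4 and Krt16 at rank 5, and 7 of the 10 largest gaps belonged to the list.

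**Figure D2:**
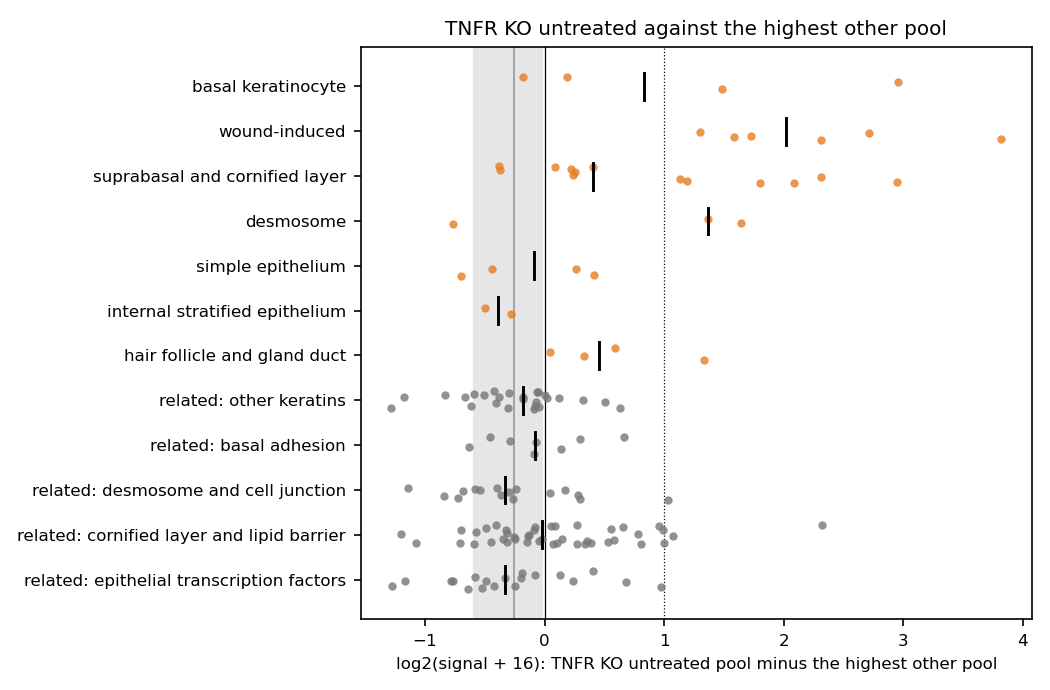
Gap between the TNFR KO untreated pool and the highest other pool on the log2(signal + 16) scale, with 1 point per gene, 36 listed genes in orange and 112 related genes in grey, and a black tick at each list's median. The grey band is the middle part of all 18193 genes between the quartiles, around a median of -0.25, and the dotted line marks 2-fold. All 6 wound-induced genes lie beyond the dotted line.

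Among the basal genes, Krt14 had the widest separation. It read 6.8 and 7.8 on the WT untreated arrays, 7.2 and 5.4 on the WT irradiated arrays, 233.1 and 270.4 on the TNFR KO untreated arrays, and 41.4 and 4.6 on the TNFR KO irradiated arrays. The signal was near the bottom of the scale on every array outside the TNFR KO untreated pool, apart from 1 TNFR KO irradiated array. Krt5, its partner, read 77.2 and 11.5 in WT untreated, 79.7 and 128.4 in WT irradiated, 234.7 and 415.6 in TNFR KO untreated, and 124.6 and 75.7 in TNFR KO irradiated. The lower TNFR KO untreated array was 1.83 times the highest of the 6 others, and the WT untreated duplicates were wide apart. Krt15, a keratin of follicle stem cells, and Trp63, the master transcription factor of stratified epithelium, showed no such peak: Krt15 lay between 2.5 and 6.8 on all 8 arrays and Trp63 between 22.5 and 39.1, both under the level for testing.

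Every wound-induced gene peaked in the TNFR KO untreated pool. Krt6b, a keratin of injured and hyperproliferative epidermis, read 53.3 and 29.0 in WT untreated, 8.0 and 8.0 in WT irradiated, 959.9 and 1030.5 in TNFR KO untreated, and 40.5 and 74.4 in TNFR KO irradiated. The lower TNFR KO untreated array was 12.9 times the highest other array. Krt6a, its close paralog, read 141.5 and 72.7, then 103.2 and 21.1, then 432.9 and 444.5, then 166.8 and 109.7 in the same order of pools. Here the WT duplicates overlapped with each other across treatment, while the TNFR KO untreated pair lay above everything else by 2.60 times or more. Krt16 read 22.5 and 33.8 in WT untreated, 6.3 and 13.2 in WT irradiated, 356.0 and 299.9 in TNFR KO untreated, and 30.3 and 42.8 in TNFR KO irradiated. Krt17, which pairs with the Krt6 proteins, read 17.3 and 4.1, then 13.1 and 29.5, then 94.4 and 115.3, then 21.1 and 4.5. Outside the TNFR KO untreated pool both keratins stayed below the level for testing. The small proline-rich proteins are cross-linked into the cornified envelope of stressed epidermis. Sprr1a read 63.0 and 72.9 in WT untreated, 73.7 and 78.4 in WT irradiated, 256.8 and 290.7 in TNFR KO untreated, and 88.1 and 117.0 in TNFR KO irradiated, so no pools overlapped, TNFR KO untreated was highest and TNFR KO irradiated came next. Sprr1b read 1.2 and 3.1, then 9.9 and 3.2, then 113.1 and 97.2, then 8.6 and 8.2, so only the TNFR KO untreated arrays stood clear of the bottom of the scale.

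The suprabasal and cornified-layer genes split into those with a clear peak and those without. Krt1, a keratin of spinous cells, read 6.1 and 30.6 in WT untreated, 37.7 and 29.8 in WT irradiated, 398.0 and 398.6 in TNFR KO untreated, and 39.6 and 35.6 in TNFR KO irradiated. Its partner Krt10 read 4.5 and 33.9, then 41.9 and 26.7, then 247.9 and 200.6, then 46.2 and 59.4. The lower TNFR KO untreated array exceeded every other array by 10.1 times in Krt1 and by 3.38 times in Krt10. Dmkn, which encodes the secreted protein dermokine, read 26.6 and 41.4 in WT untreated, 68.0 and 33.0 in WT irradiated, 299.4 and 319.9 in TNFR KO untreated, and 68.1 and 54.2 in TNFR KO irradiated. Krtdap, its neighbour and a marker of keratinocyte differentiation, read 6.1 and 4.8, then 20.7 and 4.5, then 114.8 and 126.4, then 3.1 and 23.1. Cdsn, the adhesive protein of corneodesmosomes, read 86.8 and 35.4, then 72.0 and 87.4, then 286.2 and 372.0, then 146.8 and 133.0. In all of these the TNFR KO untreated arrays lay above the others, and in Cdsn the TNFR KO irradiated arrays came next. Flg, the filaggrin gene, was highest in the same pool but reached only 55.7 and 36.3 there, below the level for testing.

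Loricrin and suprabasin were brighter throughout and separated less. Lor, the main protein of the cornified envelope, read 174.3 and 180.1 in WT untreated, 302.9 and 345.1 in WT irradiated, 425.3 and 455.4 in TNFR KO untreated, and 389.7 and 438.1 in TNFR KO irradiated. The WT untreated arrays were the lowest, the WT irradiated arrays came next, and the TNFR KO pools overlapped. Sbsn, a secreted protein of differentiating keratinocytes, read 251.0 and 282.9, then 364.0 and 302.6, then 485.0 and 475.1, then 355.7 and 451.3. Lgals7, the galectin of stratified epithelium, read 82.8 and 94.2, then 137.8 and 102.9, then 169.7 and 157.3, then 91.5 and 135.7. Both were highest in TNFR KO untreated by small margins, 1.05 times for Sbsn and 1.14 times for Lgals7. The remaining cornified-layer genes, Krt2, Ivl, Sfn and Calml3, lay between 2.1 and 56.0 on all arrays and had no pool apart from the rest. Involucrin, read by Ivl, was at 4.4 and 41.1 on the TNFR KO untreated duplicates, spanning all the other arrays.

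Of the desmosome genes, Dsp, the plaque protein desmoplakin, read 8.2 and 23.3 in WT untreated, 32 and 34.3 in WT irradiated, 149.7 and 163.5 in TNFR KO untreated, and 28.9 and 51.5 in TNFR KO irradiated. Pkp1, a plakophilin of the upper epidermis, read 12.9 and 11.9, then 27.7 and 35.1, then 177.6 and 60.5, then 23.3 and 17.6. Both peaked in TNFR KO untreated, with wide duplicates in Pkp1. Dsc3, a desmosomal cadherin, ran the other way: its TNFR KO untreated arrays, 18.4 and 26.9, were the lowest of the 8, and its highest, 72.3, was a WT irradiated array.

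Keratins of other epithelia did not share the peak, except in hair. Krt8 and Krt18, the partners of simple epithelia, lay between 27.4 and 73.1 and between 13.0 and 43.5 on the 8 arrays. Krt8 read 31.9 and 69.3, then 27.4 and 62.2, then 65.3 and 73.1, then 64.5 and 31.3. Krt7 read 44.6 and 31.0, then 36.3 and 44.0, then 31.7 and 61.6, then 61.1 and 110.2, so its brightest array was a TNFR KO irradiated one. Krt19 ranged from 9.0 to 39.4. In the internal stratified pair, Krt4 read 64.3 and 7.0, then 149.8 and 49.6, then 70.5 and 68.8, then 28.4 and 70.5, while Krt13 stayed between 5.4 and 24.4. The duplicates of Krt4 were wide apart in every pool except TNFR KO untreated. Of the inner root sheath keratins, Krt27 read 2.5 and 8.5, then 13.4 and 10.7, then 75.4 and 123.9, then 20.6 and 39.1. Krt71 read 19.6 and 17.3, then 14.8 and 48.2, then 68.8 and 79.1, then 59.8 and 51.3. Both were highest in TNFR KO untreated, with TNFR KO irradiated next. Krt79, a keratin of the gland duct, read 40.9 and 36.2, then 61.1 and 46.5, then 78.3 and 65.8, then 56.8 and 83.1, and Krt25 lay between 3.1 and 55.5, with duplicates too far apart in both to set a pool first.

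Genes read by several probe sets gave differing readings. The 36 genes had 57 probe sets, 12 genes having more than 1, and 27 of the 57 were highest on both TNFR KO untreated arrays, against 8.96% of all probe sets naming 1 gene. Of the 21 that were not a gene's brightest, 7 were. The next brightest probe set of Krt14 read 2.7 and 4.5 in WT untreated, 3.5 and 3.3 in WT irradiated, 458.5 and 397.3 in TNFR KO untreated, and 4.3 and 6.6 in TNFR KO irradiated, near the bottom of the scale outside TNFR KO untreated. For Krt6a the next brightest read 53.7 and 44.1, then 62.5 and 83.5, then 852.0 and 828.9, then 42.8 and 66.9, a separation of 9.93 times. The third probe set of Lor, unlike its brightest, read 4.0 and 2.6, then 6.6 and 1.6, then 128.4 and 107.4, then 2.2 and 1.8. The Lor peak therefore appeared in 1 of 3 probe sets. For Trp63, Krt4, Krt8, Krt13, Dsc3 and Ivl no probe set was highest on both TNFR KO untreated arrays. Krt6a and Krt6b are close paralogs, and Krt14, Krt16 and Krt17 are alike, so a probe set may read a neighbour's transcript, which was not tested.

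**Figure D3:**
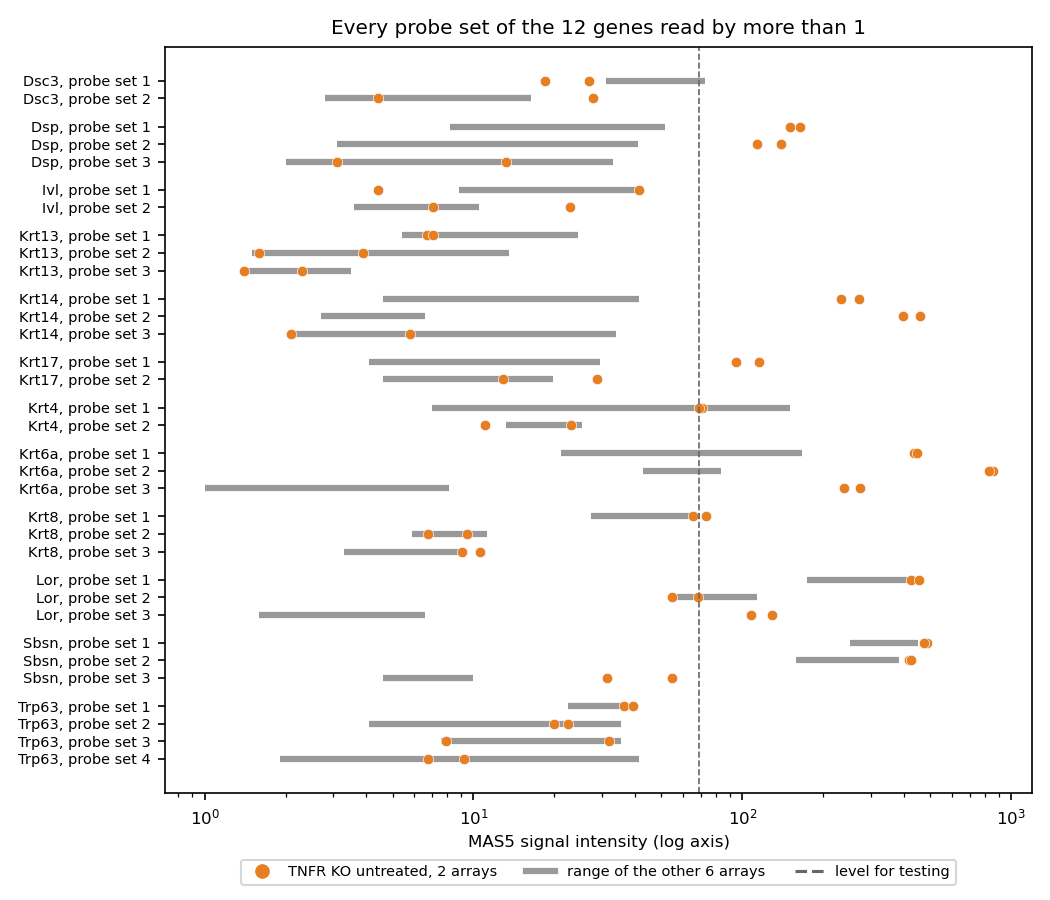
MAS5 signal on a log axis for each probe set of the 12 genes read by more than 1, numbered from the brightest, with the TNFR KO untreated arrays as orange points and the range of the other 6 arrays as a grey bar. All 3 probe sets of Krt6a lie to the right of the bar, as do 2 of 3 in Krt14 and 2 of 3 in Dsp, while only the third of Lor does.

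In the comparison of TNFR KO untreated with WT untreated, which chose the list, the log2 differences of the 9 tested genes were 4.18 for Krt6b, 2.72 for Dmkn, 2.70 for Krt5, 2.24 for Cdsn, 1.94 for Krt6a, 1.79 for Sprr1a, 1.24 for Lor, 0.81 for Sbsn and 0.78 for Lgals7. Genes are counted as called when the limma fit over all 11345 tested genes gave a Benjamini-Hochberg adjusted p under 0.05 and a difference of at least 2-fold. By that measure, which repeats the choice of genes here, 7 of the 9 were called higher and 0 lower, against 2.06% of tested genes higher and 6.25% lower. The median over all 36 genes without the filter was 1.31, against 0.09 over 18193 genes. Leaving out 1 array reduced the count to between 5 and 7. Krt6a was not called without WT untreated replicate 2 or either TNFR KO untreated array, nor Krt5 without TNFR KO untreated replicate 2. After irradiation in TNFR KO hosts, the other comparison that the choice of genes used, the log2 differences were -3.82 for Krt6b, -2.08 for Dmkn, -1.58 for Krt6a, -1.53 for Krt5, -1.30 for Sprr1a, -1.14 for Cdsn, -0.49 for Lgals7, -0.25 for Sbsn and -0.09 for Lor. Over the alternative settings the Lor difference ranged from -0.77 to -0.006, and the third Lor probe set, given above, fell to the bottom of the scale. Called lower, again as a description, were 3 of the 9, Krt6b, Dmkn and Sprr1a, and 0 higher, against 0.485% and 0.881% of tested genes. Without filter 10 of 36 were called lower, against 73 of 18193 genes. The median over all 36 was -0.94, against 0.02 over all genes. These 2 comparisons share the TNFR KO untreated pool.

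Irradiation of WT tumours was not used to choose the list, and there 1 of the 9 tested genes was called. Of the 9 tested genes the limma fit called 0 higher and 1 lower, against 2.25% and 0.203% of tested genes. Unadjusted p was under 0.05 for 2 of the 9, against 4524 of all 11345 tested genes. The gene called lower was Krt6b, with a log2 difference of -1.22 ± 0.27 (SE, 2 arrays per pool; limma, adjusted p = 0.0256), from the 53.3 and 29.0 given above to 8.0 on both arrays. Krt6b, a gene on which the list was chosen, passed the level for testing through the TNFR KO untreated pool alone, which is not in this comparison. The call on Krt6b is therefore no evidence about the list as a set. Its signals were under that level in both pools compared, and the call was lost without WT untreated replicate 1, WT irradiated replicate 1 or WT irradiated replicate 2 in the same limma fit. Lor was higher by 0.81 ± 0.09 (limma, adjusted p = 0.00366), short of 2-fold, on its brightest probe set. Over the alternative settings the Lor difference ranged from 0.29 to 0.90. In the other Lor probe sets the arrays of the WT pools overlapped. Their pool means were 68.5 untreated and 69.65 irradiated and, near the bottom of the scale, 3.3 and 4.1. Krt5 differed by 1.22 ± 0.61 (limma, adjusted p = 0.192), Krt6a by -0.83 ± 0.57 (limma, adjusted p = 0.321), Cdsn by 0.39 ± 0.32 (limma, adjusted p = 0.406) and Dmkn by 0.38 ± 0.27 (limma, adjusted p = 0.352). The other Krt6a probe sets rose instead, from a pool mean of 48.9 to 73.0 and, near the bottom of the scale, from 1.5 to 5.55. The other differences were 0.37 ± 0.19 for Lgals7 (limma, adjusted p = 0.203), 0.30 ± 0.14 for Sbsn (limma, adjusted p = 0.164) and 0.13 ± 0.14 for Sprr1a (limma, adjusted p = 0.499), the last turning to -0.12 with arrays centred on their medians or quantile-normalised.

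Array by array over all 36 genes, 13 were higher on both WT irradiated arrays than on both WT untreated arrays and 3 were lower. The 3 lower were Krt6b, Krt16 and Krt2. Across all genes the shares were 31.8% higher and 25.7% lower. The 13 held Lor, Sbsn, Lgals7 and Ivl of the cornified layer, Dsp and Pkp1 of desmosomes, Sprr1a and Sprr1b, Krt5, and the keratins Krt18, Krt25, Krt27 and Krt79. The median over all 36 genes was 0.35, against 0.04 over all genes. Of the 36, 27 were under the level for testing. The median signal of whole arrays also differed, at 64.9 and 61.9 in WT untreated and 79.3 and 78.6 in WT irradiated. A median over equally dim genes was not calculated. Centring arrays on their medians shifted the median of all tested genes from -0.02 to -0.28 and the calls from 255 higher and 23 lower to 133 and 106. In the TNFR KO untreated and WT untreated comparison the same centring turned 234 higher and 709 lower into 128 and 1118.

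Between the irradiated tumours of the 2 hosts, also outside the choice of genes, Krt6b alone was called. It was higher in TNFR KO by 1.57 ± 0.27 (SE; limma, adjusted p = 0.00409), with 40.5 and 74.4 against 8.0 and 8.0. Here too both pool means, 57.5 and 8.00, were under the level for testing, which the gene passed through TNFR KO untreated alone. This call likewise is no evidence about the list as a set. The size of a difference between such dim signals depends on the pseudocount, being 0.74 with 64 in place of 16. With 64 the call was lost, and with no pseudocount Krt6b fell below the level and was not tested. Of the 9 tested genes the limma fit thus called 1 higher and 0 lower, against 0.793% and 7.43% of tested genes. Unadjusted p was under 0.05 for 3 of the 9, against 6954 of all 11345 tested genes. Lor was higher by 0.34 ± 0.09 (limma, adjusted p = 0.0217), under 2-fold, on its brightest probe set. The next brightest Lor probe set was higher too, with pool means of 106.1 in TNFR KO and 69.65 in WT. The dimmest was not, at 2.0 against 4.1 near the bottom of the scale, with overlapping arrays. The other 7 tested genes did not pass. Krt6a differed by 1.19 ± 0.57 (limma, adjusted p = 0.123) and Cdsn by 0.71 ± 0.32 (limma, adjusted p = 0.108). Sprr1a differed by 0.35 ± 0.14 (limma, adjusted p = 0.0667). Without WT irradiated replicate 1, whose Krt6a signal was 103.2 against 21.1 on its duplicate, the Krt6a difference was 2.03. The other Krt6a probe sets were lower in TNFR KO instead, with overlapping arrays. Their pool means were 54.85 against 73.0 in WT and, near the bottom of the scale, 3.3 against 5.55. Dmkn differed by 0.26 ± 0.27, Sbsn by 0.26 ± 0.14, Lgals7 by -0.08 ± 0.19 and Krt5 by -0.05 ± 0.61. Over all 36 genes, 10 were higher on both TNFR KO irradiated arrays than on both WT irradiated arrays and 2 were lower, Trp63 and Pkp1. Across all genes 33.7% were higher and 28.7% lower. The median was 0.12, against 0.04.

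**Figure D4:**
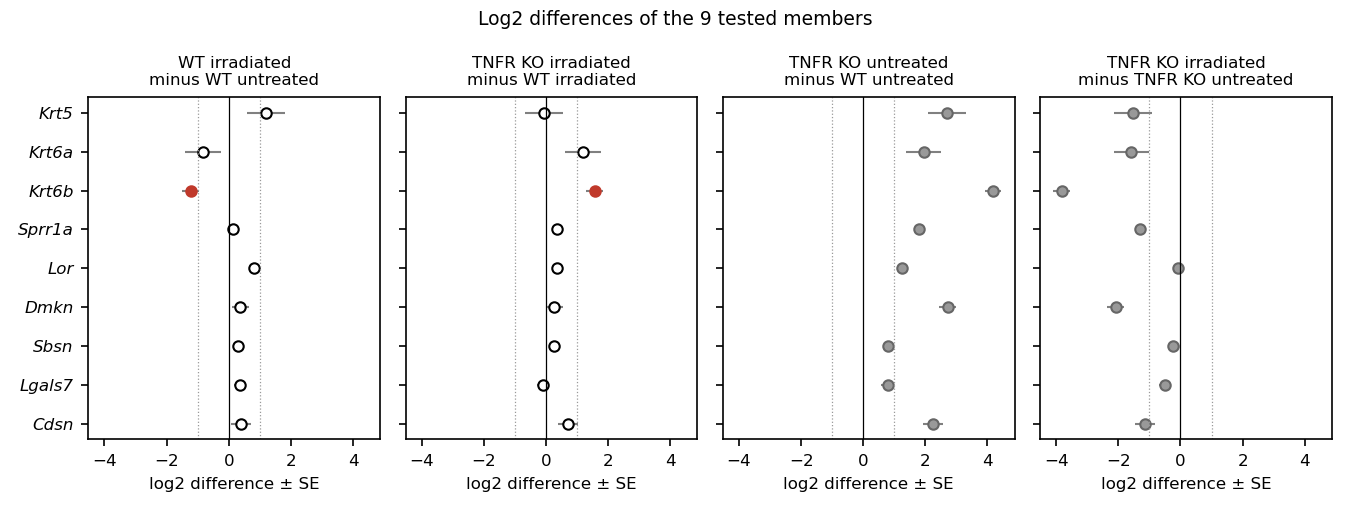
Log2 difference of each of the 9 tested genes in the 4 comparisons, with bars of 1 SE from the limma fit, filled red points where the gene was called and open points where it was not. The comparisons with TNFR KO untreated, which chose the genes, are drawn in grey with no calls and reach 4.18 for Krt6b. The comparisons without that pool hold 1 called gene each, Krt6b. The list was chosen partly on Krt6b, which passed the level for testing only through TNFR KO untreated, so these calls are no evidence about the list as a set.

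Set side by side, irradiation went with higher signal in WT hosts and lower signal in TNFR KO hosts in 9 of the 36 genes, on every array, against 5.75% of all genes. They were Krt5, Sprr1a, Sprr1b, Sbsn, Lgals7, Dsp, Pkp1, Krt25 and Krt27. The opposite arrangement occurred in 0 of the 36. The fall in TNFR KO hosts is part of what chose the list, so the count is a description.

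Related genes outside the list were taken from lists of other keratins, basal adhesion, desmosomes and junctions, the cornified layer and lipid barrier, and epithelial transcription factors, 112 genes in all. Both TNFR KO untreated arrays were highest in 20 of the 112, against the 9.75% of all genes given above: 2 of 26 other keratins, 1 of 8 basal adhesion genes, 3 of 16 junction genes, 11 of 43 cornified-layer and lipid genes and 3 of 19 transcription factors. A gap of at least 2-fold was found in 3, Klk7, Perp and S100a14, the last named after its values were seen. Klk7, a protease that cleaves corneodesmosomes, read 6.1 and 5.1 in WT untreated, 5.4 and 5.8 in WT irradiated, 90.5 and 93.5 in TNFR KO untreated, and 4.8 and 2.5 in TNFR KO irradiated, the same shape as Krt14 and Krt1. Perp, a desmosome protein, read 116.7 and 75.7 in TNFR KO untreated and at most 53.7 elsewhere. Ly6d, a surface protein of keratinocytes, read 71.3 and 142.7 there and at most 49.4 elsewhere. Plakoglobin of desmosomes and adherens junctions, read by Jup, was lowest in TNFR KO untreated at 149.5 and 165.3, and Elf3, an epithelial transcription factor, likewise at 162.7 and 156.6. Of the 34 related genes tested, irradiation of WT tumours gave 3 called higher and 0 lower in the limma fit, against 2.25% and 0.203% of tested genes, and the comparison of irradiated hosts 0 higher and 1 lower, against 0.793% and 7.43%. Unadjusted p was under 0.05 for 11 of the 34 in each, against 4524 and 6954 of all 11345 tested genes. The former were Klf4, a factor needed for the skin barrier, at 1.72 ± 0.16 (limma, adjusted p = 0.00212), the plakophilin Pkp2 at 1.39 ± 0.05 (limma, adjusted p = 0.000167) and the epidermal protease Asprv1 at 2.27 ± 0.58 (limma, adjusted p = 0.0367). The gene lower between irradiated hosts was Asprv1 as well, at -1.76 ± 0.58 (limma, adjusted p = 0.0420). For TNFR KO untreated against WT untreated 2 were higher, the tetraspanin Cd9 and the cornified-envelope gene Lce1a1, and 1 was lower, Lce3b of the same envelope family, against 2.06% and 6.25% of tested genes. Cd9 read 4124.7 and 4155.5 in TNFR KO untreated and between 1915.5 and 2669.8 elsewhere. Lce3b ran against the listed genes, with 141.4 and 80.0 in TNFR KO untreated and at least 219.7 on every other array, and it was the 1 related gene called higher after irradiation in TNFR KO hosts, where 0 were lower, against 0.881% and 0.485%.

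Markers of other cells were set beside the list by their summed signals. The wound-induced genes summed to 2213 and 2278 on the TNFR KO untreated arrays and to between 153 and 357 on the other 6, and the suprabasal and cornified genes to 2546 and 2650 against 702 to 1390. Melanocyte markers, by contrast, summed to between 165338 and 200952 on all 8 arrays, with the TNFR KO untreated arrays inside the range of the others and 1 of 9 markers highest there. Fibroblast markers summed to 16465 and 16160 in TNFR KO untreated and to between 5380 and 10915 elsewhere, with 5 of 10 highest there. Macrophage markers summed to 12473 and 11980 there and to between 5248 and 9688 elsewhere, with 6 of 10 highest, and endothelial markers to 3495 and 3369 there and to between 1722 and 2736 elsewhere, with 5 of 8 highest. Most of the fibroblast sum came from the collagens Col1a2 and Col3a1, with pool means of 6475 and 5615 in TNFR KO untreated. Of the 5 fibroblast markers without that peak, Dcn, Postn and Fap were highest in WT irradiated, Lum was highest in WT untreated, and Pdgfra was highest in no pool. Part of each stromal list thus moved with the keratin peak, and its part in the peak was not tested. Skeletal muscle markers were highest in WT untreated in 11 of 11 and in TNFR KO untreated in 0. Adipocyte markers were highest in TNFR KO untreated in 0 of 6, neutrophil markers in 0 of 7 and sebaceous gland markers in 1 of 7, Scd1, which other cells also express. The sebaceous sum was nonetheless highest there, at 4175 and 4295 against 2690 to 3553 elsewhere.

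**Figure D5:**
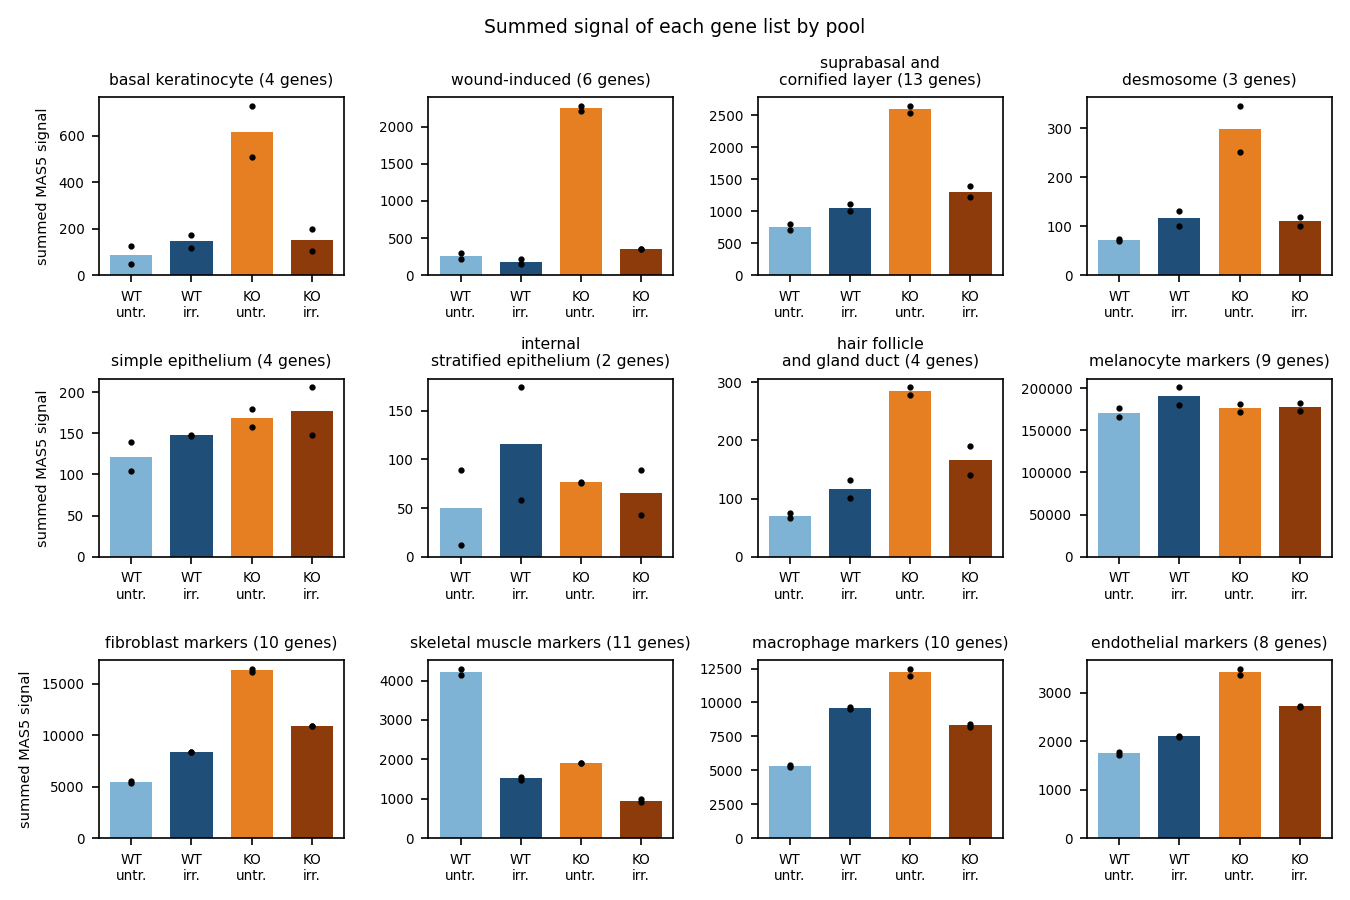
Summed MAS5 signal of each gene list by pool, with bars at the mean of the 2 arrays and a dot for each array, all axes starting at 0. The basal, wound-induced, cornified-layer, desmosome and hair follicle and gland duct lists peak in TNFR KO untreated. The fibroblast, macrophage and endothelial lists do so less steeply, and the melanocyte list has no such peak.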

How the data were processed

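Whole-tumour RNA of 4 pools was measured on 8 Affymetrix mouse whole-genome arrays. The deposited values are linear signal intensity, made with MAS5 per the submitters' processing notes; scanner files and detection calls were not used here. All 8 arrays had a 2%-trimmed mean of 500.00, a scaling by the authors. Values were transformed to log2(signal + 16) from the deposited intensity. The annotation supplied named 1 gene for 34945 probe sets, several for 932 and none for 9160, with 64 controls; 34741 of the first matched RefSeq.

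R 4.3.3 with limma 3.58.1 fitted 4 group means to the 8 arrays (4 residual and 1.99 prior degrees of freedom), two-sided, over 11345 genes; figures used matplotlib 3.10.9. The fit was tested on simulated data. The members and lists were chosen with earlier results of these data known. Array signals are printed for the members reaching the tested level in at least 1 pool. Related genes were named among the 5 of each list with the largest absolute gap between TNFR KO untreated and the highest other pool. That gap was taken in either direction, and called genes were added. Other genes were named by the same gap. Genes said to be named or singled out after their values were seen are exceptions. Deviations of same-numbered duplicates correlated between -0.03 and 0.05 across pools, so the numbers do not pair the arrays. Alternatives were quantile normalization, median centring, other pseudocounts, other filters, averaged probe sets, no fold threshold, limma-trend, a replicate block and each array left out.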

Additional observations from a re-analysis of the deposited data

Results flagged for a closer look

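In 9 of the 36 genes the arrays of the 2 hosts moved in opposite directions after irradiation: both irradiated arrays lay above both untreated arrays in WT and below them in TNFR KO. The difference between the hosts was not tested, because the fall in TNFR KO hosts was used to choose the genes. The radiation difference in TNFR KO minus that in WT, on the log2(signal + 16) scale, was -2.75 for Krt5 (1.22 in WT, -1.53 in TNFR KO) and -1.43 for Sprr1a (0.13 and -1.30, the WT value turning to -0.12 with quantile normalization or median centring). It was -2.61 for Sprr1b, -2.32 for Dsp, -2.48 for Pkp1, -1.73 for Krt27 and -1.58 for Krt25, whose signals were under the level for testing in 3 of the 4 pools or more. For Lgals7 it was -0.86 and for Sbsn -0.55.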

How the results depend on the processing

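Recalculated counts of members stayed within 1.5 times the reported value in 129 cases and moved further in 19. The 129 include counts of 0 that stayed 0, so the tally overstates how stable the calls were. In every setting 0 members were called higher after irradiation in TNFR KO. Called lower in TNFR KO than in WT, untreated or irradiated, were also 0 throughout. The replicate block left the counts at 7 higher (TNFR KO untreated against WT untreated), 3 lower (TNFR KO irradiated against TNFR KO untreated), 1 higher (irradiated TNFR KO against irradiated WT) and 1 lower (WT irradiation). Over all 11345 tested genes the same counts were 236, 48, 94 and 23. Without filter on low values, with all 36 members tested, these counts became 18, 10, 2 and 0. Over all 18193 genes the same counts were 370, 73, 178 and 32. In that refit Krt6b lost its call in WT irradiation (limma, adjusted p = 0.0691 in place of 0.0256) and Krt6a its call between untreated hosts. At the 75th percentile 0 members were left to test. Without pseudocount the last pair was 0 and 0, against 116 and 27 of 11350 genes, Krt6b having fallen below the level for testing. With a pseudocount of 64 it was 0 and 0 also, against 35 and 10 of 11345 genes. With that pseudocount 5 members were lower after irradiation in TNFR KO, against 25 of 11345 genes. The limma-trend fit gave 6 lower there and 2 higher between irradiated hosts, against 62 and 102 of 11345 genes. Dropping the fold threshold gave 2 higher between irradiated hosts and 1 higher in WT irradiation, against 3223 and 1378 of 11345 genes. Leaving out each array gave 5 to 7, 3 to 5, 1 to 2 and 0 to 1, and 20 to 25 members highest on both TNFR KO untreated arrays (20 with all arrays). Directions reversed only in differences that had not been called. For WT irradiation these were Sprr1a (-0.12 with quantile normalization and with median centring), Krt6a (-1.67 to 0.012 over single arrays left out, turned without WT irradiated replicate 2), Cdsn (-0.11 to 0.89, turned without WT untreated replicate 2) and Dmkn (-0.013 to 0.76, turned without WT irradiated replicate 1). Between irradiated hosts they were Krt5 (0.0056 with quantile normalization, -0.36 to 0.26 over arrays left out, turned without WT irradiated or TNFR KO irradiated replicate 2), Lgals7 (-0.33 to 0.17, turned without WT irradiated or TNFR KO irradiated replicate 1) and Dmkn (-0.13 to 0.65, turned without WT irradiated replicate 2). The cause of the other changes was not tested. Technical duplicates of 1 pool limit every value. Counts that involve TNFR KO untreated were fixed in part by the choice of genes, and their stability supports nothing.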

Other observations

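Outside the lists, other genes shared the peak. Calm4, a calcium-binding protein of the epidermis, read 26.1 and 3.6 in WT untreated, 4.0 and 5.1 in WT irradiated, 309.6 and 238.9 in TNFR KO untreated, and 30.9 and 3.5 in TNFR KO irradiated. It was singled out, with Lce1h of the cornified envelope and the hair protein Krtap8-1, after its values were seen. Lce1h read 103.7 and 204.2 in TNFR KO untreated and at most 42.2 elsewhere, and Krtap8-1 read 159.8 and 109.5 there and at most 40.6 elsewhere. Among tested genes outside the lists, the largest gaps to the highest other pool were those of the transcript Gm26588 (1.20), the adhesion molecule L1cam (1.19), the matricellular protein Ccn4 (1.17), Urah (1.16) and the chemokine Cxcl12 (1.11), all on the log2(signal + 16) scale. L1cam read 1110.5 and 1243.7 in TNFR KO untreated and between 389.6 and 544.3 elsewhere. Cxcl12 read 276.9 and 271.6 there and between 81.9 and 167.6 elsewhere. Relb, a subunit of NF-kB, read 568.3 and 599.8 there and between 179.0 and 316.8 elsewhere.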
